A study of Homo sapiens with 12 samples.

Results

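AP-1 is a family of transcription factors that bind DNA as pairs through a basic leucine zipper. FOS-type proteins pair with JUN-type proteins, and the pair reads a short palindromic element near its target genes. ATF3 and the BATF proteins belong to the same zipper class, and BATF proteins can also act beside interferon regulatory factors at composite elements. In squamous cells AP-1 is known for its part in growth control, differentiation and the induction of matrix proteases and cytokines.

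The 9 AP-1 factors examined were BATF2, BATF3, FOS, FOSL1, FOSL2, JUN, JUNB, JUND and ATF3, picked by gene symbol out of 60099 genes. BATF2 was included because it was higher after treatment, and FOSL2 because it differed between doses. Treated against untreated values of BATF2 and dose differences of FOSL2 are therefore described without a test. The other 7 were added by family, and all 9 passed the filter on low counts.

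The series held 12 libraries of rRNA-depleted total RNA from Cal27 and HN30, established cell lines of head and neck squamous cell carcinoma (HNSCC). Cells received IFNα, a type I interferon, at 0, 20 or 200 ng/ml for 24 h. Samples were lettered A (control), B (20 ng/ml) and C (200 ng/ml), and again D (control), E (20 ng/ml) and F (200 ng/ml), with 2 replicates per letter. The labels give no further treatment, and they do not say which letters belong to which line. A to C and D to F were read as 1 line each, called A-C and D-F here. Pearson correlations of log2 expression were 0.940 to 0.976 within these sets and 0.678 to 0.717 between them.

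Whether replicates were separate cultures is not stated, so p-values measure the spread between these samples alone. RNA came from whole cultures, where fewer expressing cells and less RNA per cell cannot be told apart. Levels are given in TPM, a share of the library's transcripts scaled for transcript length. Total estimated counts ran from 10517448 to 16056734 per library, and 3 counts, taken as the limit of detection in a library, equalled 0.187 to 0.285 CPM. Of 9 squamous markers, 8 were at 1 TPM or more in every sample. The 6 immune markers summed to at most 3.12 TPM, with CD3E and NKG7 at 0 in all libraries, and 6 fibroblast markers to 4.78 to 14.0 TPM. The 3 endothelial markers summed to 15.3 to 21.7 TPM in A-C, nearly all CDH5, and to at most 0.733 TPM in D-F. All 10 genes of an interferon check list, among them MX1 and IFIT3, were higher at both doses in each set.

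The 2 libraries at 200 ng/ml in A-C stood apart in composition. C1 and C2 had the highest share of counts from mitochondrial genes, 6.51% and 7.82%, against a median of 4.73% over the 12 libraries. Against control, their fold changes also followed the GC content of a gene's main transcript. The median log2 fold change was 0.18 for genes below 40% GC and -0.56 for genes of 65% GC or more. At the same dose in D-F those medians were -0.02 and -0.01. At 20 ng/ml they were 0.13 and -0.12 in A-C, a weaker trend in the same direction, and -0.03 and -0.01 in D-F. Some results that use C1 and C2 are given below with a correction for GC content, which was added after the data were seen. The others are given uncorrected.

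**Figure D1:**
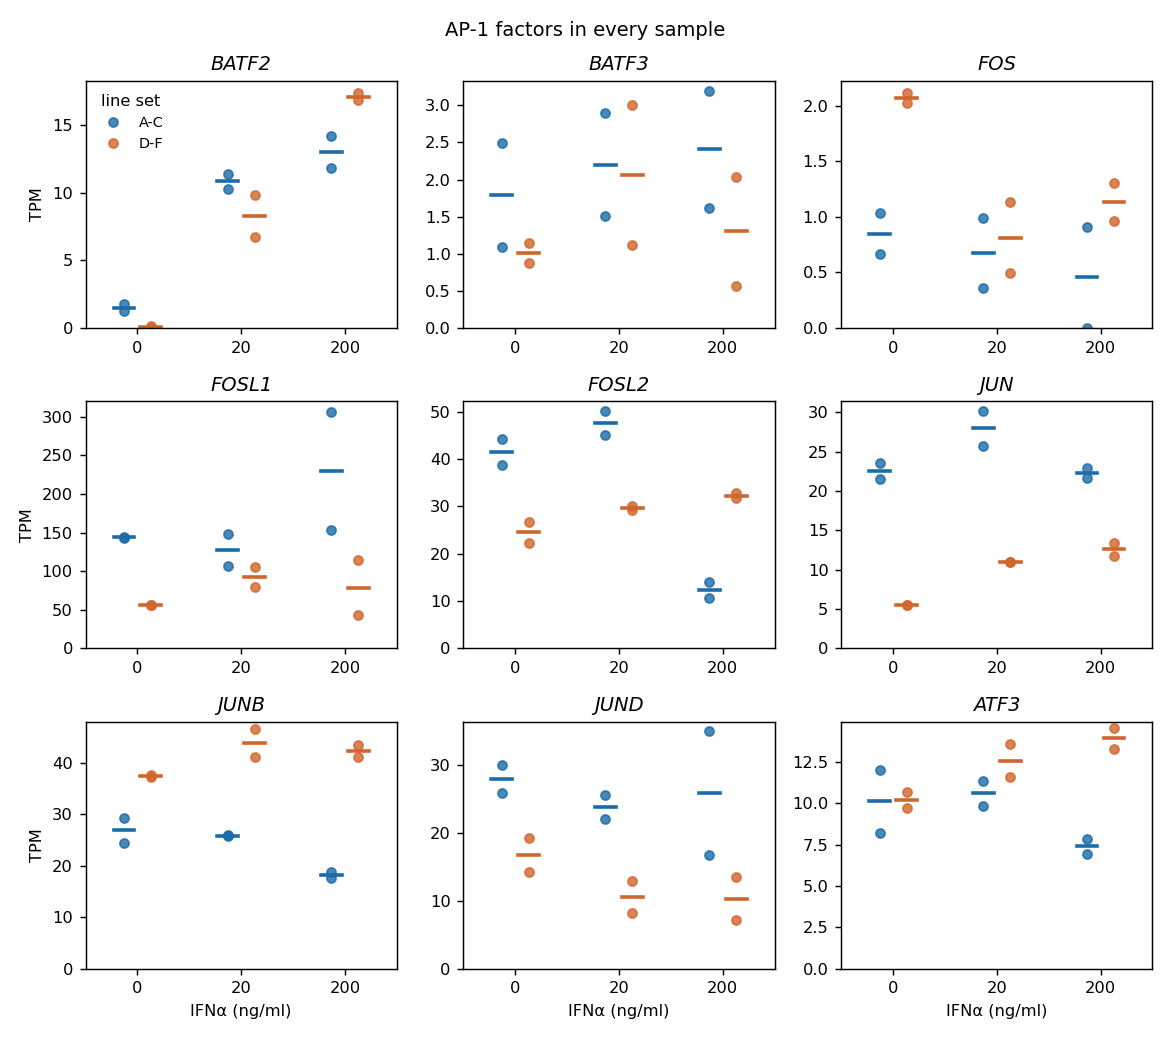
TPM of the 9 factors (vertical axis) by IFNα dose in ng/ml (horizontal axis), with 1 point per library and a bar at the mean of 2 replicates; blue is A-C and orange is D-F. BATF2 lies highest in the treated libraries of both sets, FOSL2 is lowest in C1 and C2, and JUN is higher in the treated than in the untreated D-F libraries.

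BATF2 and FOSL2 are the members chosen for their values, so the sequence at their RefSeq starts is printed first. RefSeq windows of GRCh38.p14, from 250 bases before to 30 bases after the start, were found for 7 of the 9 members. BATF3 and FOSL1 were not matched. Both strands were searched for TGACTCA (the AP-1 site), TGACGTCA (the CRE), TGACATCA (the variant known from the JUN promoter), TTCNNNGAA (a GAS element) and the ISRE core, which is a pair of GAAA blocks 2 bases apart. Windows are written 5′ to 3′ on the gene's strand, with the matched element in capitals. BATF2 is at chr11:64990248-64990527 on the minus strand and FOSL2 at chr2:28392608-28392887 on the plus strand.
BATF2: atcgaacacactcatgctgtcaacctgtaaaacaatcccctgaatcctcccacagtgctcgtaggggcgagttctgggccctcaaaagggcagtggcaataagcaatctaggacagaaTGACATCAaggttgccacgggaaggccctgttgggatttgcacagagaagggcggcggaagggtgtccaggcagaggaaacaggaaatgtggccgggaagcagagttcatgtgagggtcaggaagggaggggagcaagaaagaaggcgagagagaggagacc
FOSL2: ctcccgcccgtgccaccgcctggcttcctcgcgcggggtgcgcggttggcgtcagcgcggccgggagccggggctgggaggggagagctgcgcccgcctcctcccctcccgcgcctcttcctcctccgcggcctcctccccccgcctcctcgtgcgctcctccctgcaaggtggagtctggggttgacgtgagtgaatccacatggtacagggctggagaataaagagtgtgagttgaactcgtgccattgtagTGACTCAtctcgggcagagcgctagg

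The BATF2 and JUN windows each held TGACATCA, at -132 and -67 from the RefSeq start, and so did the first of 2 ATF3 windows, at -123. FOSL2 held TGACTCA at 5 bases after its start, and JUND held TGACGTCA at -200. FOS and JUNB held none of the elements searched, and no member's window held the ISRE core or the GAS element. Among 35116 windows of the same length, 2.55% held TGACATCA, 4.73% the AP-1 site, 1.85% the CRE, 3.39% the ISRE core and 7.30% the GAS element. These are matches of letters and say nothing of binding. In GRCh38 the members lie at chr11:64987943-64997045 (BATF2), chr1:212686418-212699985 (BATF3), chr14:75278774-75282230 (FOS), chr11:65892049-65900573 (FOSL1), chr2:28392448-28417312 (FOSL2), chr1:58780788-58784327 (JUN), chr19:12791496-12793315 (JUNB), chr19:18279760-18281622 (JUND) and chr1:212565334-212620777 (ATF3). The BATF2 window lies at an internal start, since the coding transcript with most of its signal begins upstream, at position 64997045. The RefSeq starts of the 2 ATF3 windows are 212565407 and 212615018. The coding transcript with the largest share of ATF3 signal begins at neither, but at position 212608670. The JUN window lies inside the 1 deposited JUN transcript, which begins at position 58784327, and its sequence is not printed.

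BATF2 encodes a BATF protein induced by interferons. It was almost silent without IFNα in D-F and low in A-C, and it was the factor with the largest difference after treatment. In A-C it measured 1.73 and 1.26 TPM in controls, 10.3 and 11.4 TPM at 20 ng/ml, and 14.2 and 11.8 TPM at 200 ng/ml. In D-F it measured 0 and 0.131 TPM in controls, 6.75 and 9.82 TPM at 20 ng/ml, and 17.4 and 16.8 TPM at 200 ng/ml. Every treated library lay above every untreated one in both sets.

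In counts, the D-F controls held 0 and 3 reads of BATF2, which is at the detection limit. The level at 20 ng/ml was therefore at least 50.5-fold higher than in controls, and that at 200 ng/ml at least 98.2-fold higher, taking 3 counts per control library. In A-C, where controls held 35 and 33 counts, the log2 fold change was 2.72 (SE 0.34, n = 2 per group) at 20 ng/ml and 2.92 (SE 0.34) at 200 ng/ml, or 6.58-fold and 7.56-fold.

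The step from 20 to 200 ng/ml was not used to choose BATF2. Averaged over both sets it was 0.58 on the log2 scale (SE 0.21), which did not pass by edgeR's quasi-likelihood test with Benjamini-Hochberg adjustment over 19944 genes (adjusted p = 0.451, unadjusted p = 0.0222). Within the sets the step was 0.20 (SE 0.30) in A-C and 0.96 (SE 0.30) in D-F. In TPM both C libraries exceeded both B libraries, and both F libraries exceeded both E libraries. In CPM the A-C doses overlapped, since C2 lay below both B libraries, while the D-F doses did not.

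Between untreated lines, BATF2 was at least 11.8-fold lower in D than in A. This is given without a test, since the untreated values were part of what BATF2 was chosen for. Treated libraries ranged from 10.3 to 14.2 TPM in A-C and from 6.75 to 17.4 TPM in D-F, so the ranges overlapped. The fold changes of the sets are set side by side above without a test, since the treatment response is what BATF2 was chosen for.

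The BATF2 signal was split over transcripts. ENST00000301887, the coding transcript of 3 exons, held 65.8% of its summed TPM, and ENST00000527454, a retained-intron transcript of 1 exon, held 27.1%. ENST00000527454 made up nearly all of the signal in A1 and A2, at 32 and 33 counts against 3 and 0 for the coding transcript. Replicates differed in this split. B1 held 23 counts of the coding and 177 of the retained-intron transcript, while B2 held 185 and 44. The gene totals of B1 and B2 were 200 and 229 counts, so the gene level was alike where the assignment to transcripts was not.

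**Figure D2:**
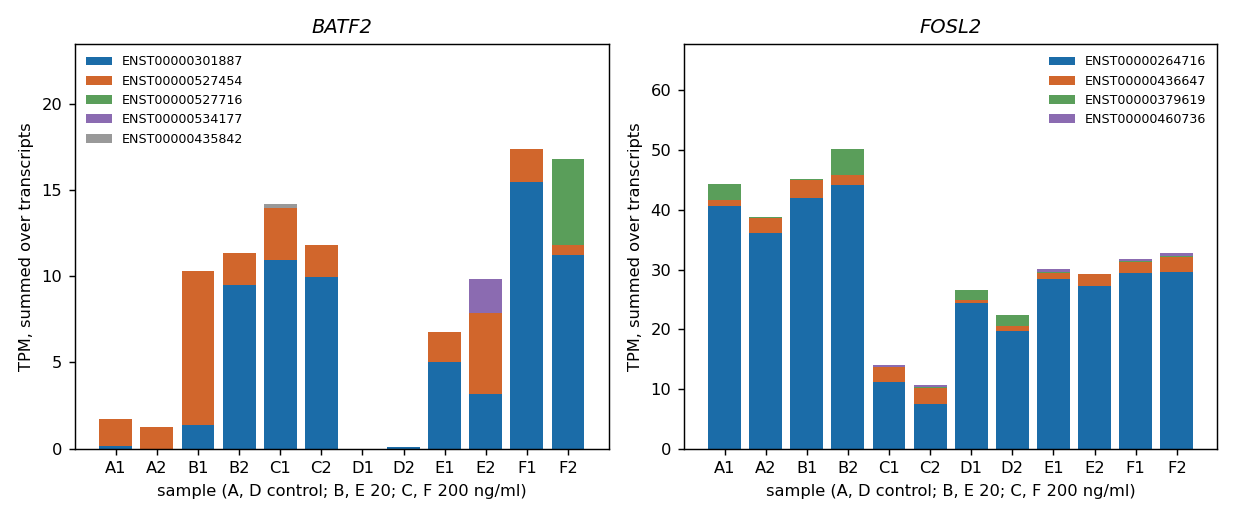
TPM of BATF2 (left) and FOSL2 (right) in each library, stacked by deposited transcript; the horizontal axis lists the libraries, with A and D as controls, B and E at 20 and C and F at 200 ng/ml. The split of BATF2 differs between B1 and B2, and ENST00000264716 (blue) carries the low FOSL2 level of C1 and C2.

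The genes most like BATF2 were also higher after treatment in both sets. After removal of the set means, the highest Pearson correlations of log2 CPM over 12 samples, among 13033 genes averaging 50 counts or more, were those of LAMP3 (0.994), UBA7 (0.992), RTP4 (0.991), GMPR (0.990) and HK2 (0.990). LAMP3 encodes a lysosomal membrane protein, UBA7 the activating enzyme of ISG15, and HK2 a hexokinase. Mean LAMP3 was 15.3, 80.5 and 135 TPM in A, B and C and 1.25, 74.4 and 94.3 TPM in D, E and F. HK2 varied over a narrower range, from 50.5 to 65.5 TPM in A-C and from 27.2 to 53.7 TPM in D-F. The points share libraries and the dose, so these values are descriptions.

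FOSL2 encodes FRA2, a FOS-type partner of the JUN proteins. It was lower in C1 and C2 than in the other 10 libraries. It measured 44.3 and 38.8 TPM in A, 45.2 and 50.2 TPM in B, and 14.1 and 10.7 TPM in C. In D-F it measured 26.6 and 22.3 TPM in controls, 30.1 and 29.3 TPM at 20 ng/ml, and 31.7 and 32.7 TPM at 200 ng/ml. The 2 C libraries thus lay below every other, whereas the F libraries lay slightly above the D libraries.

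In A-C, FOSL2 at 200 ng/ml differed from control by -1.999 on the log2 scale (SE 0.17) and from 20 ng/ml by -2.19 (SE 0.17). The corresponding values in D-F were 0.26 (SE 0.16) and 0.07 (SE 0.16). The lower dose gave close values against control in both sets, 0.19 (SE 0.16) in A-C and 0.18 (SE 0.16) in D-F. Among 13033 genes, FOSL2 ranked 92 from the lowest in A-C at 200 ng/ml against control, and 10210 in D-F.

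The trend with GC content and the mitochondrial share moved with this result, since both were strongest in C1 and C2. The main FOSL2 transcript is 53.3% GC. Genes of 50 to 55% GC had a median log2 fold change of -0.07 in A-C at 200 ng/ml, and 13 of 2050 were lower by 2 or more on that scale. With the GC correction FOSL2 was still at -1.92 (SE 0.17). The part of the mitochondrial share was not tested.

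Averaged over both doses and both sets, a contrast not used to choose the gene, FOSL2 differed from control by -0.34 (SE 0.10) and did not pass by edgeR (adjusted p = 0.0621), where 8.95% of genes did. This difference was -0.42 without C1, -0.28 without C2, -0.34 by DESeq2 and -0.31 with the GC correction. The response at 200 ng/ml was 2.26 higher in D-F than in A-C (SE 0.23), 2.17 higher with the GC correction, and 2.00 to 2.58 higher when 1 library was left out. All values in this paragraph rest on the C libraries, which also gave the dose difference for which FOSL2 was chosen. They are given without a test.

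ENST00000264716, a coding transcript of 6708 bases and 4 exons, held 90.6% of the FOSL2 signal. It carried 545 and 314 counts in C1 and C2, against 1209 to 2696 in the other 10 libraries. The shorter coding transcript ENST00000436647, with 5.90% of the signal, did not show the pattern. It was at 2.49 and 2.69 TPM in C1 and C2 and at 0.54 to 2.96 TPM elsewhere. FOSL2 overlaps an antisense RNA, FLJ31356, which was at 1.16 TPM or less. It also overlaps an intronic RNA on its own strand, AC104695.3, at 3.13 to 15.6 TPM, whose reads may not be fully separable from those of FOSL2. AC104695.3 averaged 12.1 TPM in C, 8.18 TPM in A and 10.2 TPM in B.

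The genes most like FOSL2 also dipped in C. FGFRL1, a receptor-like protein of the FGF family, correlated at 0.961 and averaged 16.4, 18.2 and 2.82 TPM in A, B and C and 16.5, 15.4 and 14.6 TPM in D, E and F. A locus without a symbol (0.953), CCDC85B (0.952), TST (0.944) and ZNF579 (0.941) followed. The 4 named genes had main transcripts of 62.1 to 67.7% GC, above the 53.3% of FOSL2.

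JUN, the founding JUN-type subunit, was the 1 member of the 7 chosen by family that passed at either dose over both sets. At 200 ng/ml 9.55% of 19944 genes passed, and at 20 ng/ml 3.93%. JUN was at 5.51 and 5.54 TPM in the D controls, 11.01 and 10.95 TPM in E, and 13.4 and 11.8 TPM in F. In A-C it was at 21.5 and 23.5 TPM in controls, 25.8 and 30.1 TPM at 20 ng/ml, and 22.9 and 21.7 TPM at 200 ng/ml. The treated D-F libraries all exceeded the D controls, and in A-C the B libraries exceeded the controls while the C libraries overlapped them.

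Averaged over the sets, JUN rose by 0.61 on the log2 scale at 20 ng/ml (SE 0.09, edgeR adjusted p = 0.00381) and by 0.55 at 200 ng/ml (SE 0.09, edgeR adjusted p = 0.00434). Within D-F it rose 1.90-fold at 20 ng/ml (log2 0.92, SE 0.13, edgeR adjusted p = 0.0034) and 2.15-fold at 200 ng/ml (log2 1.10, SE 0.13, edgeR adjusted p = 0.000819). Over all genes, 3.37% and 5.84% passed in these contrasts. In A-C the values were 0.31 (SE 0.12, edgeR adjusted p = 0.329) and 0.00 (SE 0.12, edgeR adjusted p = 1.00). There 1.11% of genes passed at 20 ng/ml and 7.18% at 200 ng/ml. With both C libraries left out, JUN passed at 200 ng/ml in D-F at 1.10 (edgeR adjusted p = 0.00157). In a fit without the line set as a term, neither JUN call passed.

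The JUN response at 200 ng/ml was 1.10 higher in D-F than in A-C (SE 0.18, edgeR adjusted p = 0.0198). This call was lost without A2, C2, D1, D2, F1 or F2 in turn (edgeR adjusted p from 0.0543 to 0.0890), under the replicate block (0.0641) and with the compared letters alone (0.0547). It passed with the GC correction at 0.92 (edgeR adjusted p = 0.0336). For the lower dose the difference was 0.62 and did not pass (edgeR adjusted p = 0.232).

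**Figure D3:**
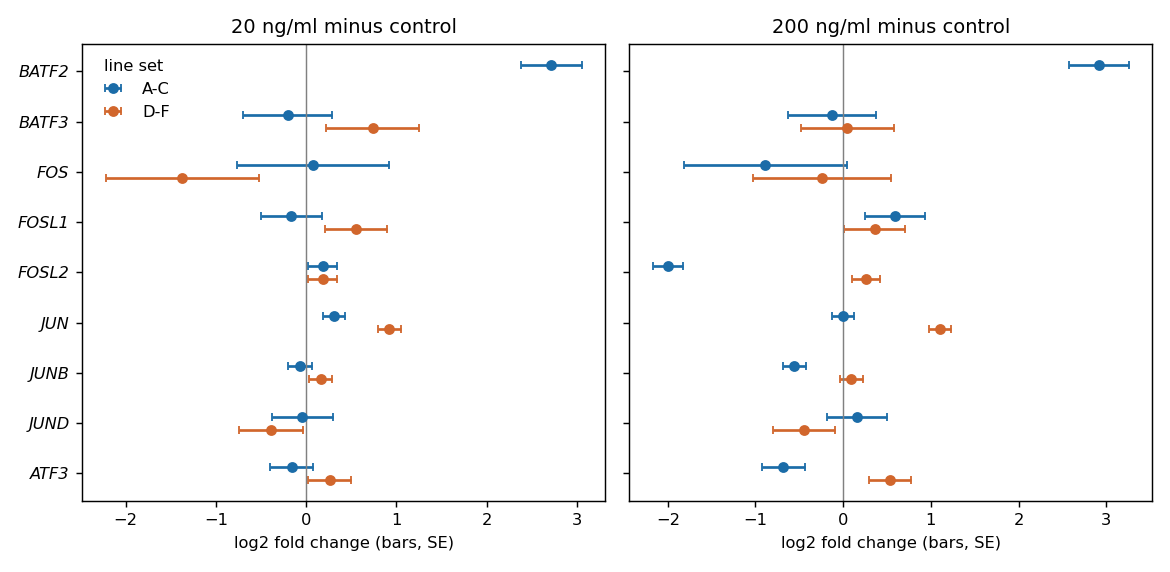
Log2 fold change against control (horizontal axis) of each factor at 20 ng/ml (left) and 200 ng/ml (right), with bars of 1 SE from the edgeR fit and 2 libraries per group; blue is A-C and orange is D-F. BATF2 in D-F is left out, since its controls are at the detection limit. FOSL2 in A-C at 200 ng/ml lies at -1.999, and JUN in D-F lies at 0.92 and 1.10.

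JUNB and JUND are the other JUN-type subunits. JUNB was at 24.5 and 29.4 TPM in A, 25.7 and 26.0 TPM in B, and 17.6 and 18.7 TPM in C. In D-F it stayed between 37.2 and 46.5 TPM. Within A-C it was lower at 200 ng/ml than in control by 0.56 (log2 -0.56, SE 0.13, edgeR adjusted p = 0.0363). The main JUNB transcript is 64.9% GC, and genes of 60 to 65% GC had a median of -0.33 in the same contrast. With the GC correction JUNB was at -0.14 (SE 0.13) and the call was lost (edgeR adjusted p = 0.601). Over both sets JUNB was at -0.23 at 200 ng/ml (edgeR adjusted p = 0.161). JUNB overlaps HOOK2 on the opposite strand, which was at 36.5 to 64.5 TPM.

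JUND was uneven between replicates, with 16.8 and 34.96 TPM in C1 and C2 and 7.11 and 13.6 TPM in F1 and F2. Its log2 fold change over both sets was -0.14 at 200 ng/ml (SE 0.25, edgeR adjusted p = 0.800) and -0.22 at 20 ng/ml (SE 0.25, edgeR adjusted p = 0.756). Such a spread leaves changes of this size undetectable with 2 replicates.

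**Figure D4:**
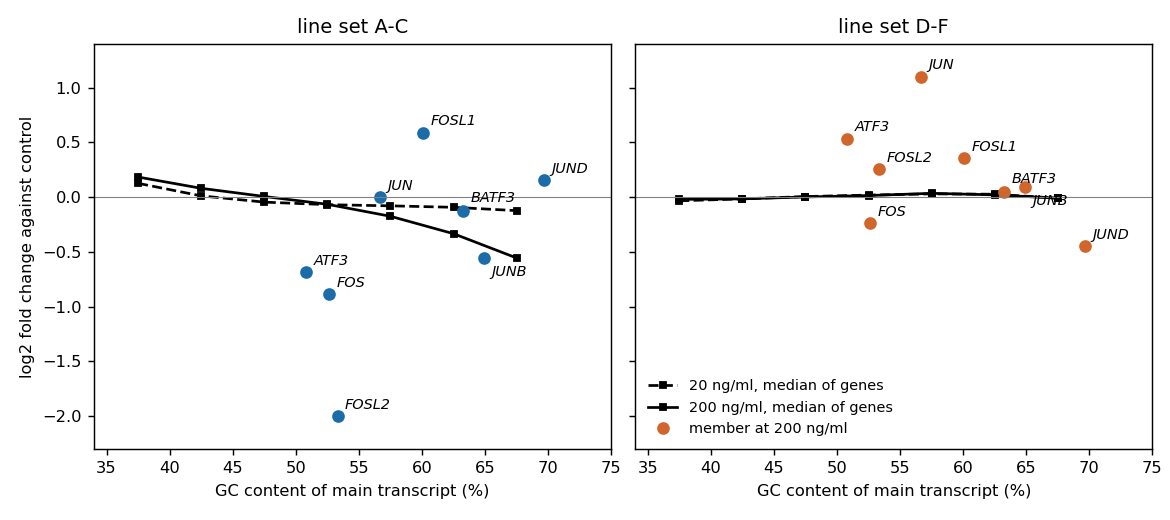
Log2 fold change against control (vertical axis) by GC content of the main transcript in percent (horizontal axis) for A-C (left) and D-F (right). Black squares are medians of genes in 7 GC classes, dashed at 20 and solid at 200 ng/ml, and coloured points are the factors at 200 ng/ml without BATF2. The median line slopes down in A-C and is flat in D-F; FOSL2 lies far below it at -1.999, and JUNB at -0.56 lies near the median of -0.33.

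FOSL1, which encodes FRA1, was the most abundant member, with a mean of 121 TPM over the 12 libraries. It measured 144 and 143 TPM in A, 106 and 148 TPM in B, and 153 and 307 TPM in C. In D-F it measured 56.0 and 56.4 TPM in controls, 105 and 79.0 TPM at 20 ng/ml, and 43.0 and 114 TPM at 200 ng/ml. At 200 ng/ml the replicates therefore differed by more than the means of the doses in D-F. The log2 fold change over both sets was 0.47 (SE 0.24, edgeR adjusted p = 0.272) at 200 ng/ml and 0.19 (SE 0.24, edgeR adjusted p = 0.785) at 20 ng/ml. Much of the unevenness sat in ENST00000532401, a coding transcript, which held 303 and 1038 counts in C1 and C2. ENST00000312562, also coding, held 488 and 447 counts in the same libraries.

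FOS, the classical immediate-early partner of JUN, was near the detection limit. It held 0 to 26 counts per library and at most 2.12 TPM, with no read in C2. Both D controls, at 2.02 and 2.12 TPM, lay above all other libraries. Treated libraries of D-F were at 0.496 to 1.31 TPM. The log2 fold change over both sets was -0.65 (SE 0.60, edgeR adjusted p = 0.674) at 20 ng/ml and -0.56 (SE 0.61, edgeR adjusted p = 0.645) at 200 ng/ml. It passed at 200 ng/ml in 1 fit, the one without C1, which leaves the library with no FOS read as the only C sample.

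ATF3 is a stress-induced factor, and BATF3 a BATF protein best known from dendritic cells. ATF3 was at 11.99 and 8.23 TPM in A, 9.86 and 11.3 TPM in B, and 6.96 and 7.83 TPM in C. In D-F it was at 10.7 and 9.73 TPM in controls, 13.6 and 11.6 TPM at 20 ng/ml, and 13.3 and 14.5 TPM at 200 ng/ml. The groups at 200 ng/ml did not overlap their controls, below them in A-C and above them in D-F, but neither difference passed. The values were -0.68 (SE 0.24, edgeR adjusted p = 0.135) and 0.54 (SE 0.24, edgeR adjusted p = 0.268). The difference between these responses was 1.22 (SE 0.34, edgeR adjusted p = 0.109). BATF3 held 8 to 42 counts and 0.570 to 3.20 TPM, and within each set its replicates at either treated dose differed by more than the group means did.

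Between 200 and 20 ng/ml, 0 of the 7 members chosen by family passed by edgeR over both sets, where 0.135% of all genes did. By DESeq2 the count was also 0, and at an unadjusted p of 0.05 it was 1, JUNB (-0.28, SE 0.09). The response at 200 ng/ml differed between sets for 1 of these 7, JUN, against 1.88% of all genes. At 20 ng/ml it differed for none of the 7 by edgeR or DESeq2, against 0.371% of all genes by edgeR, and at an unadjusted p of 0.05 for 1 (JUN).

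In untreated D against untreated A, 2 of the 7 members chosen by family passed by edgeR, JUN and FOSL1, each lower in D. Over all genes 46.4% passed, so this count does not exceed the background. JUN was lower by 2.15 on the log2 scale (log2 -2.15, SE 0.13, edgeR adjusted p = 1.44e-06), FOSL1 by 1.43 (log2 -1.43, SE 0.35, edgeR adjusted p = 0.00728) and FOSL2 by 0.88 (log2 -0.88, SE 0.16, edgeR adjusted p = 0.00163), and BATF2 is given above. JUNB was at 0.34 (SE 0.13, edgeR adjusted p = 0.0548) and did not pass. With the GC correction JUNB was at 0.53. That correction was set around the mean of each set, C1 and C2 included, so it cannot decide a contrast of untreated libraries. Ordered by mean TPM over all libraries, FOSL1 (121 TPM, SD 70.1, n = 12) was followed by JUNB (32.4, SD 9.95), FOSL2 (31.3, SD 12.1), JUND (19.2, SD 8.69), JUN (17.0, SD 8.23), ATF3 (10.8, SD 2.39), BATF2 (8.46, SD 6.38), BATF3 (1.80, SD 0.905) and FOS (1.00, SD 0.617). FOSL1 differed from JUNB by more than the larger of their SDs, as did FOSL2 from JUND and BATF2 from BATF3 by a narrow margin. The other neighbours in this order differed by less than that SD. These means pool sets and doses, and the order changed within groups. FOSL2 averaged 41.5 TPM and JUNB 26.9 TPM in A, against 24.5 and 37.5 TPM in D.

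The genes around AP-1 were taken as lists by role. None of the 8 tested bZIP partners, such as FOSB, ATF2 and the small MAF proteins, passed at 200 ng/ml over both sets by edgeR. Over all genes 9.55% passed, so this count is near the background. The other 3 of the list did not reach the filter on counts. Their median log2 fold change was -0.03, against -0.01 for all genes.

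Among 16 kinases and factors that induce AP-1, 3 were lower and none higher at 200 ng/ml over both sets, with a median of -0.15. Over all genes 4.57% passed as lower. MAP2K2, which encodes the kinase MEK2, was at -0.63 (SE 0.11, edgeR adjusted p = 0.00564). ELK1, a transcription factor of the ETS family, was at -0.49 (SE 0.12, edgeR adjusted p = 0.0296). Both passed with the GC correction, and so did ELK4. In D-F alone the values of MAP2K2 and ELK1 were -0.27 and -0.29, and neither passed. None of the 16 passed at 20 ng/ml by edgeR, where 1.6% of all genes passed as lower. With the GC correction ELK4 (-0.24, edgeR adjusted p = 0.0455) and MAP2K6 (-1.26, edgeR adjusted p = 0.0428) passed there.

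Of 19 tested immediate-early and feedback genes, 4 were higher and none lower at 200 ng/ml over both sets, with a median of 0.24. Over all genes 4.98% passed as higher and 4.57% as lower, with a median of -0.01. DUSP4, a phosphatase that acts on MAP kinases, rose by 0.50 (SE 0.06, edgeR adjusted p = 0.00056). It averaged 34.6, 48.5 and 50.1 TPM in A, B and C and 56.4, 78.4 and 80.2 TPM in D, E and F. DUSP10, a phosphatase of JNK and p38, rose by 0.64 (SE 0.13, edgeR adjusted p = 0.0141), and IER3 by 0.29 (SE 0.06, edgeR adjusted p = 0.022). SPRY4 was the other of the 4.

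Known AP-1 targets formed the last large list. At 200 ng/ml over both sets 8 of 18 tested rose and 1, PLAU, fell, with a median of 0.39. The lower dose gave 7 that rose and none that fell. Within A-C alone 1 rose at 20 ng/ml and 4 at 200 ng/ml, and within D-F alone 7 and 8 did. Of all genes, 1.11% and 7.18% passed in either direction in A-C, and 3.37% and 5.84% in D-F. With the GC correction 10 rose at 200 ng/ml over both sets, where PLAU still fell, and 9 rose at 20 ng/ml. Over all genes and both sets, 4.98% passed as higher at 200 ng/ml and 2.33% at 20 ng/ml, uncorrected. With that correction PLAU passed as lower within A-C, where the libraries at 200 ng/ml are C1 and C2. No target gene passed as lower within D-F. MMP13, a collagenase, averaged 8.94, 31.5 and 51.8 TPM in A, B and C and 1.08, 5.86 and 9.80 TPM in D, E and F, and rose by 2.80 at 200 ng/ml (SE 0.17, edgeR adjusted p = 5.28e-06). IL6 averaged 9.24, 17.7 and 18.7 TPM in A-C and 1.26, 5.72 and 10.8 TPM in D-F, and rose by 1.81 (SE 0.17, edgeR adjusted p = 0.000142). CXCL8, the chemokine IL-8, rose by 1.20 (SE 0.10, edgeR adjusted p = 6.57e-05). In A-C the CXCL8 value was 0.32 (edgeR adjusted p = 0.198) and in D-F 2.08 (edgeR adjusted p = 2.12e-05). Many of these targets also answer to other factors such as NF-κB, and none of the values assigns them to an AP-1 pair.

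The IRF proteins that can share elements with BATF proteins were represented by IRF1 and IRF2, while IRF4 and IRF8 did not reach the filter. IRF1 rose by 0.40 at 200 ng/ml over both sets (SE 0.06, edgeR adjusted p = 0.00432) and IRF2 by 0.72 (SE 0.11, edgeR adjusted p = 0.00291). Within A-C alone 1 of these 2 genes passed as higher at that dose, and within D-F alone 1 did. IRF1 averaged 87.3, 77.3 and 91.7 TPM in A, B and C and 69.9, 107 and 121 TPM in D, E and F. Between 200 and 20 ng/ml no tested gene of the bZIP partner, kinase, feedback, target or IRF lists passed by edgeR. Such an outcome is near the share over all genes, where 0.135% passed. In the interferon check list 3 of 10 did, namely IFIT1 (0.61, edgeR adjusted p = 0.0372), IFIT3 (0.51, edgeR adjusted p = 0.0113) and DDX58 (0.45, edgeR adjusted p = 0.0211).

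**Figure D5:**
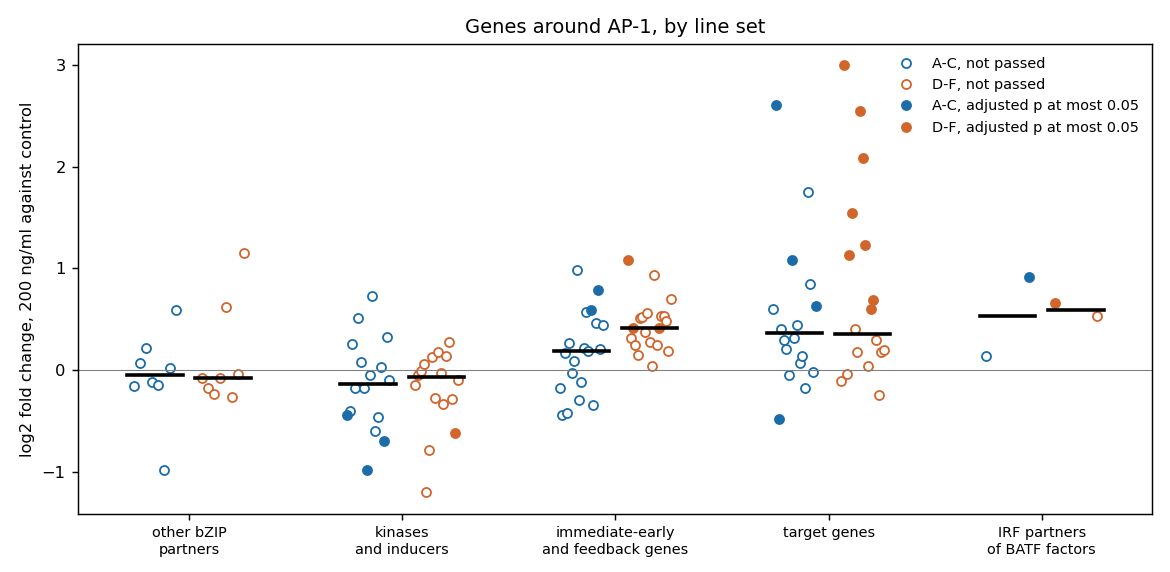
Log2 fold change at 200 ng/ml against control (vertical axis) of each tested gene in 5 lists around AP-1 (horizontal axis), in A-C (blue) and D-F (orange); filled points passed at an adjusted p of at most 0.05, and black bars are list medians. IVL, with no TPM in either A library, is counted in the median but not drawn. Most filled points above 0 are target genes, with 8 in D-F, and no bZIP partner is filled.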

How the data were processed

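The authors sequenced strand-specific, rRNA-depleted libraries on an Illumina platform. Per the labels, processing named Trimmomatic 0.36, HISAT2 2.1.0, StringTie 1.3.3b and the build GRCh38.p10; the strand setting of the counting is not given in the sources used here. The deposited gene and transcript tables hold estimated counts, TPM and FPKM per library. The deposited counts were whole numbers, used as they stood, and the deposited TPM values gave levels. The deposited FPKM values were not used.

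Counts were fitted with edgeR 4.0.16 (R 4.3.3; TMM, filterByExpr, quasi-likelihood F test) over 12 libraries in 6 groups, and p-values were Benjamini-Hochberg adjusted over 19944 genes. A gene passed at an adjusted p of at most 0.05. SE is the log2 fold change over the root of F. The fit, DESeq2 1.42.0 and limma 3.58.1 were tested on simulated data. Alternatives were DESeq2, RLE scaling, no filter, a replicate block, fewer groups, no line set term, limma on log2(TPM + 0.1), a 2-fold minimum and leaving out each library. Added after the data were seen were offsets for GC content (main transcript, GENCODE 29, 91.3% of tested genes) and a fit without the C libraries. Replicate numbers did not pair samples (correlations of deviations -0.05 to 0.06).

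Members and lists were chosen with earlier results of these data known. Text names all members and, per list, up to 3 genes with the smallest adjusted p at 200 ng/ml against control and at 200 against 20 ng/ml, the 5 genes most like BATF2 and FOSL2, and transcripts with at least 10% of a member's TPM. Some listed genes are not reported here. SPRY4, ELK4, MAP2K6, PLAU, IVL and ENST00000436647 and genes that overlap FOSL2 or JUNB were named after their values were seen. Intervals and floors cover counting error only.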

Additional observations from a re-analysis of the deposited data

Results flagged for a closer look

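The response at 200 ng/ml was marked as differing between the sets for 3 members. D-F exceeded A-C by 4.56 on the log2 scale for BATF2, a size that depends on the 0 and 3 counts of the D controls, by 2.26 for FOSL2 and by 1.10 for JUN (edgeR adjusted p = 0.0198). FOSL2 also differed between the sets in its step from 20 to 200 ng/ml, by 2.26. BATF2 and FOSL2 were chosen for their treatment and dose values in the same libraries, so their differences are descriptions and no p is given. All 4 differences include C1 and C2, the libraries with the highest mitochondrial share. Whether that share has a part in them was not tested.

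One value stood apart from its dose group. BATF3 was at 2.496 TPM in A2, while the other 3 untreated libraries were at 0.882 to 1.15 TPM. A2 held 42 counts of BATF3. It was 1 of 27 groups of 4 libraries examined, and chance marks about 1 group in 20.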

How the results depend on the processing

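No result changed direction under any alternative run. The count of the 7 family members passing against control, 1 at each dose (JUN), became 0 at both doses without a line set term and with a 2-fold minimum, whether the p was adjusted or not; leaving out 1 library gave 1 to 2 at 200 ng/ml (FOS joined JUN without C1). Among these 7, only JUN differed between sets by edgeR in its 200 ng/ml response. It did not pass under the replicate block or with the compared groups alone. Without 1 library the difference was 1.01 to 1.19. BATF2 and FOSL2 were chosen on these libraries and are not counted here. At 20 ng/ml none of the 7 differed between sets by edgeR or DESeq2. FOSL2 over both doses, -0.34, was -0.34 by DESeq2 and ranged from -0.42 to -0.28 without 1 library. Replicate numbers did not pair samples, and the replicate block changed no other recomputed call of the 7. For single members' values, 179 of 197 recomputed calls were kept and 18 did not pass. These include contrasts of BATF2 and FOSL2, chosen on these libraries, so the count is a description. The causes were not tested. BATF3 and FOS held 42 counts or fewer in every library.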
